A study of Mus musculus with 6 samples.

Results

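Adventitial fibroblasts are the collagen-making cells of the capsule and of the sheath around larger vessels, and 138 cells of this kind were found among 426 fibroblasts in the lymph nodes of melanoma-bearing mice, 60 in the YUMM1.7 library and 78 in the YUMMER1.7 library. They were taken by raw transcript counts (unique molecular identifiers, UMIs) from cells of 1000 UMIs or more in which 500 genes or more were seen and mitochondrial transcripts made up no more than 10%. They were chosen by measured values: each had at least 3 UMIs of Col3a1 (type III collagen), at least 1 of Pdgfra and Pdgfrb together (the platelet-derived growth factor receptors of fibroblasts), and none of Pecam1 (endothelium), Cd79a (B cells) or Cd3e (T cells). The summed UMIs of 4 adventitial genes, Dpt, Pi16, Clec3b and Col14a1, had to exceed those of Ccl19 and Cxcl13, the chemokines of reticular fibroblasts. In GRCm38, Pi16 lies on chromosome 17 at 29317680-29330593, Dpt on chromosome 1 at 164796644-164824266, Clec3b on chromosome 9 at 123150946-123157432 and Col14a1 on chromosome 15 at 55307750-55520803, all on the plus strand and protein-coding.

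The libraries came from inguinal and axillary lymph nodes, draining the tumour where there was one, of C57Bl/6 mice that were tumor-free or bore YUMM1.7 or YUMMER1.7, a pair of mouse melanoma cell lines of which YUMMER1.7 was derived from YUMM1.7 by ultraviolet irradiation and carries more mutations. Nodes were digested with collagenase and split into a fraction enriched for CD11b or CD11c and a fraction de-enriched for CD45, the marker of blood cells, with 1 library of each per arm. Each library pooled the nodes of several mice, whose number and age the labels do not give, and all groups shared the strain. With 1 library per arm, no test between arms was possible: each difference below compares the YUMM1.7 library with the YUMMER1.7 library, and its 95% interval covers counting error only.

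Fibroblasts of a lymph node form several layers. Reticular fibroblasts inside the tissue guide lymphocytes with CCL19, CCL21 and CXCL13 and support them with survival factors, while adventitial fibroblasts lie around vessels and under the capsule and build fibrillar collagen and elastic fibres. Cells with PI16 and DPP4 in this layer are known across organs as a reservoir from which more specialised fibroblasts can arise, and cells with COL15A1 sit closer to the parenchyma.

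The CD45-depleted YUMM1.7 library held 8372 cells past the filters and the YUMMER1.7 library 5209, with median depths of 4820 and 6403 UMIs. The adventitial cells were deeper, with medians of 13758 and 14689 UMIs and sums of 862130 and 1333000. The naive library gave 1 such cell among 12659, with 19 UMIs of Pi16, 36 of Col14a1 and 0 of Ccl19 and Cxcl13, and was not compared. No member was found in the CD11b or CD11c libraries, among 9726, 7114 and 6570 cells, and the largest of the 3 limits that these counts of 0 allow, taken as 3 counts of the library's cells, was 0.0457%. The YUMM1.7 and YUMMER1.7 libraries shared 6 barcodes among the cells kept, none of them of a member, and a doublet caller marked 0 cells in either library, so doublets were not removed.

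Members made up 0.717% of the cells kept in the YUMM1.7 library (exact interval 0.547 to 0.922%) and 1.5% in the YUMMER1.7 library (1.19 to 1.87%). Success of the CD45 depletion can set this share. Among fibroblasts passing the same gate they were 38.0% of 158 cells (30.4 to 46.0%) and 29.1% of 268 cells (23.7 to 34.9%), and these intervals overlap. The remaining fibroblasts were 95 and 187 reticular cells, and 3 cells in each library had neither sum ahead.

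The 4 genes that chose the cells are given as a description. Clec3b, the plasminogen-binding protein tetranectin, stood at 1156 UMIs per 1000000 member UMIs (CPM) in YUMM1.7 and at 1101 CPM in YUMMER1.7, and had a UMI in 52 of 60 and 68 of 78 cells. Dpt, which encodes the collagen-binding matrix protein dermatopontin, stood at 889 and 989 CPM in 51 and 70 cells. Col14a1, a collagen that coats fibrils, stood at 837 and 819 CPM in 45 and 71 cells. Pi16, a secreted peptidase inhibitor, stood at 703 and 584 CPM but came from only 23 and 38 cells. Among the other cells kept, Pi16 had a UMI in 0.974% and 1.7%, Dpt in 1.72% and 3.46%, at lower depth. After thinning each cell to 1000 UMIs, Pi16 was seen in 28.3% and 23.1% of members, Clec3b in 60% and 57.7%, Col14a1 in 41.7% and 50%, and Dpt in 38.3% and 61.5%. All 4 genes were found together in 17 of 60 and 33 of 78 members, and 4 members in each library had only 1 of them.

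Most members were far from the threshold. The adventitial sum led the reticular sum by a median of 28.5 UMIs in YUMM1.7 and 32.5 in YUMMER1.7. Just inside, 5 and 4 members led by 1 to 3 UMIs. Just outside, 4 and 5 fibroblasts were tied and 5 and 12 trailed by 1 to 3 UMIs. Ccl19 and Cxcl13 were both at 0 in 25 and 21 members, while 5 and 11 members had more than 10 UMIs of them.

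The members were of several kinds, and the split used below was made after their values were seen. A member was called marked where it held at least 2 UMIs over 9 genes of pericytes, smooth muscle, mesothelium or endothelium, among them Rgs5, Notch3, Myh11, Cdh5 and Lyve1. Most reticular cells also had a UMI of Rgs5 (86.3% and 82.9%) and of Notch3 (56.8% and 55.1%), so the mark can take reticular-like members too. It was not scaled to depth. Marked cells were 18 of 60 (30.0%, interval 18.8 to 43.2%) in YUMM1.7 and 23 of 78 (29.5%, 19.7 to 40.9%) in YUMMER1.7. The unmarked rest divided into 22 and 36 cells with Pi16 and 20 and 19 without it. The marked cells contributed 39.2% and 27.1% of all member UMIs, so sums over all members weigh them differently in the arms.

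**Figure D1:**
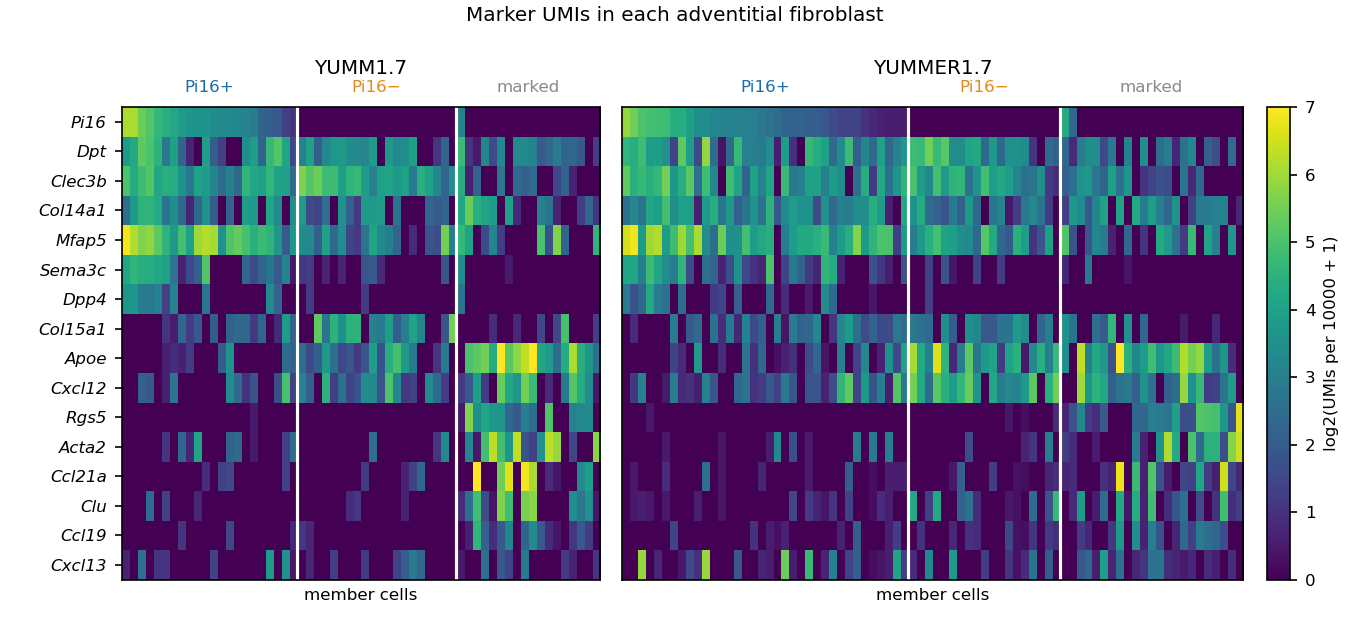
Each column is 1 member cell, with Pi16-positive, Pi16-negative and marked cells set apart by white lines in each library, and colour gives log2(UMIs per 10000 + 1), capped at 7. Sema3c and Dpp4 are seen mostly in the Pi16-positive cells and Rgs5, Acta2, Ccl21a and Clu mostly in the marked cells.

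The name adventitial was checked against markers of other cells. Mural genes summed to 2050 and 1343 CPM over the 11 genes of that list, below the reticular cells (2904 and 2567 CPM) and above the other cells kept (78.2 and 194 CPM), and none of the 11 was at 0. Rgs5, a pericyte gene, had a UMI in 25% and 30.8% of members against 86.3% and 82.9% of reticular cells, with up to 92 and 138 UMIs in 1 member. Acta2, smooth muscle actin, reached 259 and 160 UMIs in 1 member. Of the marked cells, only 1 in YUMM1.7 and 2 in YUMMER1.7 had Pi16. For the rest the name rests on the other 3 genes beside mural, endothelial or reticular transcripts. It is kept here only as the name of the rule.

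Markers of further cell types were checked. The mesothelial genes Msln, Upk3b and Lrrn4, the adipocyte genes Adipoq and Plin1, the pigment cell genes Dct, Tyr, Tyrp1 and Sox10 and the keratinocyte genes Krt5 and Krt14 were at 0 in both libraries. The whole adipocyte list of 7 genes summed to 30.2 and 42.8 CPM, against 1.25 and 9.27 CPM in reticular cells. Up to 22 and 40 UMIs of it lay in 1 member. The mesothelial list summed to 6.96 and 3.75 CPM and the keratinocyte list to 18.6 and 21.8 CPM. The 6 leukocyte genes summed to 107 and 48.8 CPM against 3519 and 3091 CPM in the other cells kept, where most cells were leukocytes. B cell transcripts, led by immunoglobulin light chain, were found in every member at 960 and 731 CPM in sum, against 48041 and 36887 CPM in the other cells. The lymphatic endothelial list summed to 1412 and 176 CPM in members, against 10006 and 7438 CPM in reticular cells. Nearly all of it in members was Ccl21a, with up to 487 UMIs in 1 member. The tenocyte and cartilage list summed to 340 and 533 CPM against 43.2 and 32.9 CPM in reticular cells, led by Cilp, a matrix protein of cartilage, with up to 199 UMIs of the list in 1 member. The pigment cell list summed to 118 and 72.8 CPM in members. It stood at 87.7 and 60.3 CPM in reticular cells and at 14.2 and 14.5 CPM in the other cells kept. In members, 96 UMIs in each library were of Mitf, while 7 of the list's 9 genes were at 0. The part of these transcripts in the values below was not tested.

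Beside the reticular cells of the same libraries the members had more of the machinery of fibrillar collagen and elastic fibres. The rule used this contrast, so the values describe the cells and support nothing. Of 7112 genes measured, 466 (6.55%) were at least 2-fold higher in members in both libraries and 418 (5.88%) at least 2-fold lower. A list of 35 other genes known from adventitial fibroblasts had 30 of 33 measured members higher and 0 lower. Mfap5, a microfibril glycoprotein, stood at 2055 against 28.8 CPM in YUMM1.7 and at 2006 against 36.6 CPM in YUMMER1.7. Mgp, an inhibitor of calcification in vessel walls, stood at 3641 against 31.9 and 4737 against 179 CPM. Of the elastic fibre genes 13 of 19 were higher and 0 lower, and Mfap4, an elastin-binding protein, differed by 6.35 and 8.03 on the log2 scale. Of the fibrillar and related collagens 10 of 11 were higher. Itgbl1 (290 against 1.25 and 417 against 1.39 CPM), Igfbp6, a binder of insulin-like growth factor 2 (719 against 23.2 and 601 against 15.5 CPM), and the lipocalin Apod (364 against 9.40 and 505 against 15.1 CPM) were also far above the reticular cells.

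Genes lower in members included organisers of lymphoid tissue. Tnfsf11, the cytokine RANKL made by marginal reticular cells, stood at 2.32 against 234 CPM in YUMM1.7 and 6.00 against 294 CPM in YUMMER1.7. Mfge8, the phosphatidylserine-binding protein of follicular dendritic cells, stood at 467 against 4214 and 228 against 3765 CPM. Of 25 measured genes of the reticular list, 15 were lower and 1, Il6, was higher (log2 ratios of 4.05 and 2.78). Il6 had a UMI in 13 of 60 and 23 of 78 members, with up to 44 and 100 UMIs in 1 member.

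**Figure D2:**
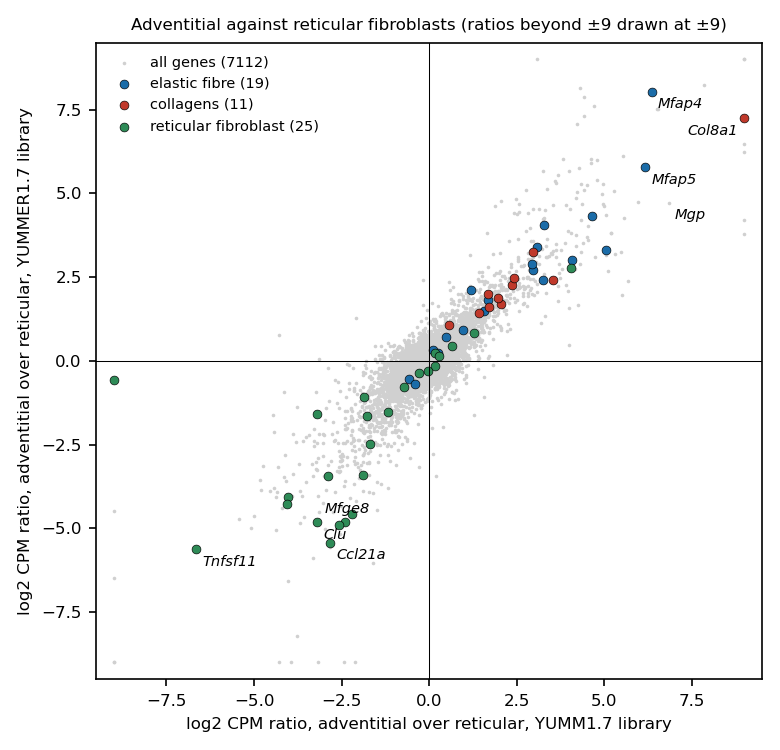
Each point is 1 of 7112 genes, with the log2 CPM ratio of adventitial over reticular fibroblasts in the YUMM1.7 library on the x axis and in the YUMMER1.7 library on the y axis, and ratios beyond 9 in size drawn at 9. Elastic fibre genes and collagens lie mostly above 0 in both libraries and reticular genes mostly below 0.

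Within the unmarked members, cells with Pi16 and cells without it had different secretory genes. The split is by a measured gene of these cells, so this too is a description without a test. Of 1855 genes measured, 88 (4.74%) were at least 2-fold higher in the Pi16-positive cells in both libraries and 23 (1.24%) at least 2-fold lower. Dpp4, a cell-surface dipeptidase, stood at 375 against 14.1 CPM in YUMM1.7 and at 246 against 3.66 CPM in YUMMER1.7. Sema3c, a secreted guidance protein, stood at 965 against 75.3 and 730 against 22 CPM. The complement inhibitor Cd55 stood at 619 against 42.3 and 420 against 36.6 CPM, and Igfbp5, a binder of insulin-like growth factors, at 2454 against 179 and 1962 against 110 CPM.

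Genes higher in the Pi16-negative cells included Col15a1, Lpl, Apoe and Cxcl12. Col15a1, a basement membrane collagen, stood at 983 against 170 CPM in YUMM1.7 and 695 against 288 CPM in YUMMER1.7. Lpl, lipoprotein lipase, stood at 2992 against 593 and 2218 against 606 CPM, and Apoe, a lipid carrier, at 753 against 86.6 and 1475 against 203 CPM. Cxcl12, the chemokine that retains leukocytes near stroma, stood at 626 against 186 and 1629 against 430 CPM. Across the 42 and 55 unmarked cells, Spearman's rho with Pi16 per cell was 0.64 and 0.69 for Sema3c, 0.61 and 0.61 for Anxa3, 0.59 and 0.57 for Dpp4, and -0.51 and -0.36 for Col15a1. Between the libraries rho differed more for Mfap5 (0.79 and 0.41), Ly6a (0.60 and 0.11) and Penk (-0.28 and -0.11). These cells share a library and differ in depth, and Pi16 was at 0 in many of them.

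The tumour arms were compared over the summed UMIs of all members. The matrix proteins Postn and Prg4, the hyaluronan synthase Has1 and the metal-handling genes Mt1 and Slc39a14 were higher in YUMMER1.7, and Ccnd1, Smpd3 and Macrod2 were lower. Of 6495 genes with at least 50 UMIs over both libraries, 93 (1.43%) were at least 2-fold higher in YUMMER1.7 and 94 (1.45%) at least 2-fold lower, and the median log2 ratio over all of them was -0.00. In the reticular cells of the same libraries the counts were 158 (1.62%) and 150 (1.54%) of 9767 genes.

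Many of these genes rested on a few cells. Of the 93 higher genes, 39 stayed past 2-fold after the gene's UMIs in its leading cell, the cell with most of them in the library where the gene was higher, were left out, 18 of these stayed so without the marked members, and 10 of these also among the Pi16-positive members alone. Of the 94 lower genes, 31, 8 and 4 did. A gene counted in a smaller set only with at least 50 UMIs there over both libraries, so some fell out for lack of UMIs. Pappa, with 34 and 7 UMIs and a ratio of -3.44 in the Pi16-positive members, was 1 of these. The steps were chosen after the data were seen, and the genes that passed all of them are described first, save 1 higher gene that the naming rule leaves out and 1 lower gene.

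Prg4, which encodes lubricin, a boundary lubricant proteoglycan, had 21 UMIs in 8 of 60 YUMM1.7 members, the most in 1 cell being 7, and 237 UMIs in 31 of 78 YUMMER1.7 members, where the leading cells had 50, 36 and 25. Levels were 24.4 and 178 CPM, a log2 ratio of 2.87 (2.22 to 3.59), which was 2.53 without the leading cell, 3.11 without the marked members and 2.95 in the Pi16-positive members. YUMMER1.7 cells with Prg4 were found in all 3 kinds of member, 17 of 36 Pi16-positive, 8 of 19 Pi16-negative and 6 of 23 marked. In reticular cells Prg4 was lower in level and its ratio pointed the same way, with 2.51 and 25.5 CPM and UMIs in 2.11% and 10.7% of cells.

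Has1 makes hyaluronan, the large sugar polymer of loose matrix. It had 44 UMIs in 17 YUMM1.7 members and 275 UMIs in 39 YUMMER1.7 members, 51.0 and 206 CPM, with a log2 ratio of 2.02 (1.55 to 2.51). The ratio was 1.69 without the leading cell, 1.86 without marked members and 1.80 in Pi16-positive members. Reticular cells were near 0 for this gene (0.626 and 3.48 CPM).

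Postn, the matricellular protein periostin, was the most abundant of these genes. It had 512 UMIs in 30 of 60 YUMM1.7 members, with a median of 0.5 and a highest cell of 105, and 2021 UMIs in 48 of 78 YUMMER1.7 members, with a median of 3 and a highest cell of 429. Levels were 594 and 1516 CPM, a log2 ratio of 1.35 (1.21 to 1.49) that was 1.01 without the leading cell and 0.90 without the members that held leukocyte RNA. After thinning to 1000 UMIs, 16.7% of YUMM1.7 and 38.5% of YUMMER1.7 members had a Postn UMI. It was higher in YUMMER1.7 in Pi16-positive (840 and 1963 CPM), Pi16-negative (94.1 and 315 CPM) and marked members (681 and 1561 CPM). In reticular cells the ratio pointed the other way, at 105 and 72.8 CPM (-0.52, interval -0.80 to -0.24); the difference between the cell types was not tested.

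**Figure D3:**
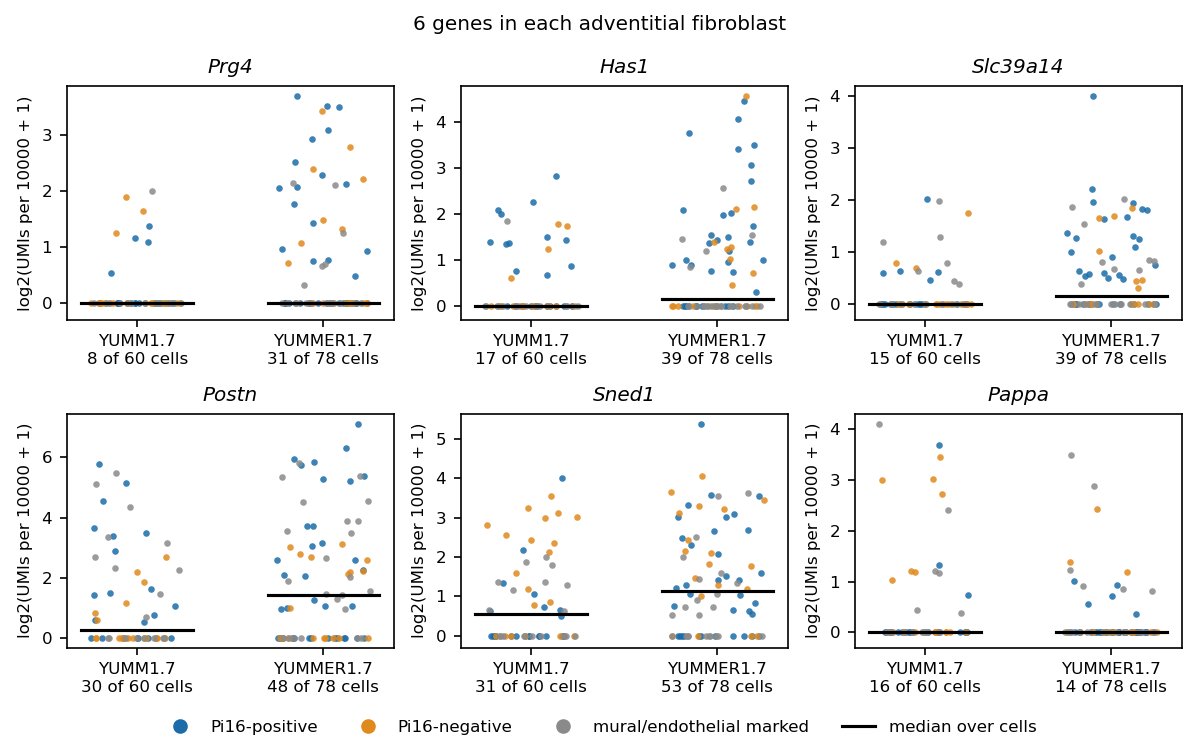
Each dot is 1 member, coloured by kind of member, with the library on the x axis, log2(UMIs per 10000 + 1) on the y axis and the black line at the median over cells. Cells with a UMI of Prg4 number 8 of 60 in YUMM1.7 and 31 of 78 in YUMMER1.7, and of Postn 30 and 48, while most medians lie at or near 0.

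The metallothioneins Mt1 and Mt2 and the transporter Slc39a14 stood higher in YUMMER1.7. Mt1, which binds zinc and copper, had 322 UMIs in 40 members and 1214 in 60, 374 and 911 CPM, with a log2 ratio of 1.29 (1.11 to 1.47) and of 1.04 without the leading cell. Marked members did not share this difference in value (290 and 296 CPM). Mt2, which has the same function, had a ratio of 1.37, but 0.81 in Pi16-positive members. Slc39a14, a zinc and iron importer, had 21 UMIs in 15 members, no cell above 3, and 129 UMIs in 39 members, with a ratio of 1.99 (1.32 to 2.73). Mt1 in reticular cells had a log2 ratio of 1.7, and the other cells of the libraries had a Mt1 UMI in 9.18% and 19.6%. Over the 15 measured genes of the metal and oxidative stress list, 3 were at least 2-fold higher (Mt1, Mt2 and the cell cycle inhibitor Cdkn1a) and 1 lower (Slc7a11, a cystine transporter), with a median of 0.03. Slc39a14 is not on that list. Over all genes measured, 1.43% were at least 2-fold higher and 1.45% lower.

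Sned1, an extracellular matrix protein with nidogen and fibronectin domains, had 117 UMIs in 31 members and 496 in 53, a log2 ratio of 1.46 (1.16 to 1.76), which was 2.11 in the Pi16-positive members but 0.86 as a mean over cells and 0.56 after thinning. Ptx3, a soluble pattern recognition protein that also binds hyaluronan matrix, had 39 UMIs in 10 members and 166 in 21, a ratio of 1.46 (0.95 to 2.0). Reticular cells had a Ptx3 UMI in 0% and 12.3%. Peg3, a paternally expressed zinc finger gene, had 27 UMIs in 17 members and 132 in 33, a ratio of 1.66 (1.06 to 2.32). Nrg1, the ligand of ERBB receptors, was at 0 in YUMM1.7 and had 65 UMIs in only 7 YUMMER1.7 cells, 40 of them in 1 cell.

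Lower in YUMMER1.7 across these sets were Ccnd1, Smpd3 and Macrod2, among others. Ccnd1, cyclin D1, had 125 UMIs in 30 of 60 members against 67 in 28 of 78, a log2 ratio of -1.53 (-1.98 to -1.09). Smpd3, a neutral sphingomyelinase, had 44 UMIs in 12 members, 9 of them Pi16-positive, against 22 in 7, all Pi16-positive, with a ratio of -1.63. Macrod2, a very long gene that encodes an ADP-ribosyl hydrolase, had 98 UMIs in 23 members against 55 in 23, a ratio of -1.46 (-1.97 to -0.97). Pappa, the protease that frees insulin-like growth factor from its binding proteins, had 82 UMIs in 16 members, 32 in the leading cell, against 27 UMIs in 14, a ratio of -2.23 (-2.92 to -1.59) and of -1.52 without the leading cell. After thinning to 1000 UMIs the ratio of Pappa was -0.64, and that leading cell was 1 of only 3 YUMM1.7 Pi16-positive members with a UMI of it.

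**Figure D4:**
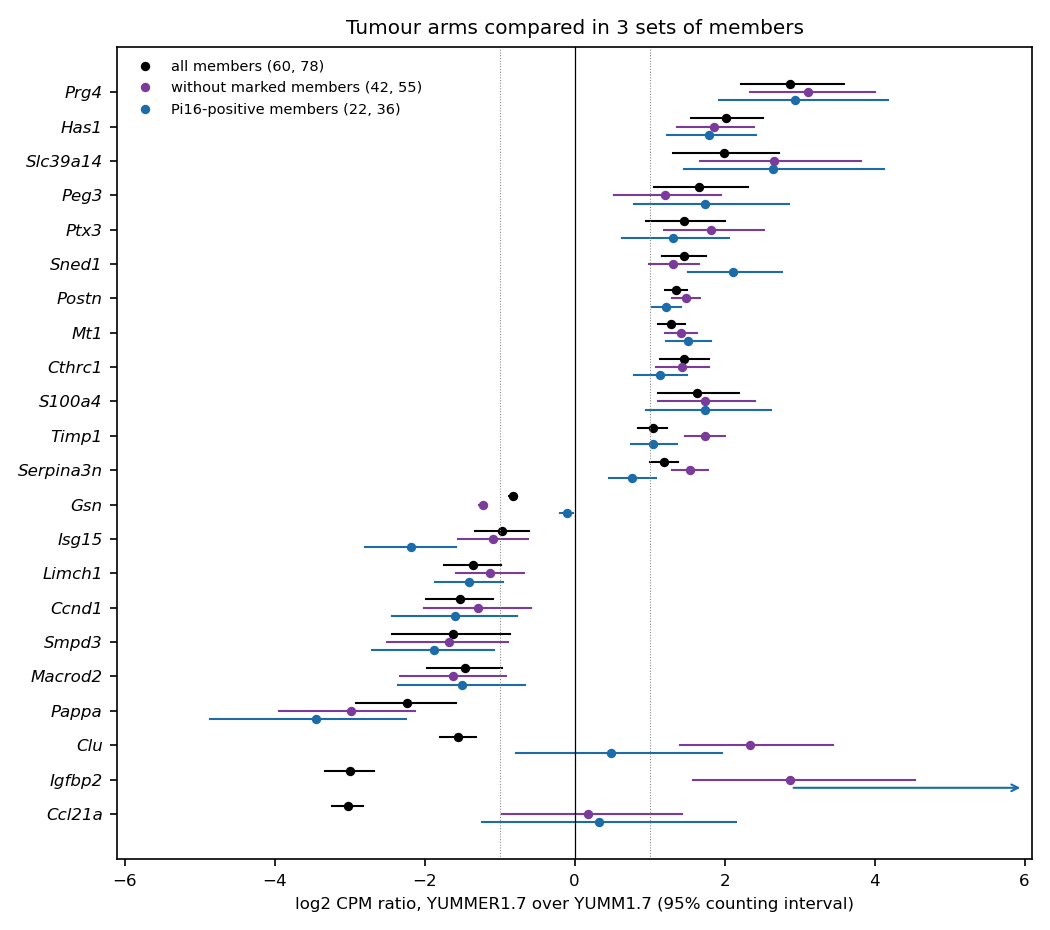
Log2 CPM ratios of YUMMER1.7 over YUMM1.7 for 22 genes, with 95% counting intervals, in all members, without the marked members and in the Pi16-positive members, dotted lines marking 2-fold, and an arrow where YUMM1.7 had 0 UMIs. Prg4, Has1 and Slc39a14 stay above 1 in the 3 sets, whereas Clu, Igfbp2 and Ccl21a lie below -1 only in the set of all members.

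Several of the most negative ratios lay in the marked members. Ccl21a, the chemokine of the T cell zone, stood at 1408 and 173 CPM, a log2 ratio of -3.03, and 1 YUMM1.7 cell held 487 of its 1214 UMIs. Without the marked members its ratio was 0.18 (-0.97 to 1.43). Igfbp2 moved from -3.0 to 2.88 (1.58 to 4.54) and Clu, clusterin, from -1.56 to 2.34 (1.40 to 3.45) when the marked members were left out. Few UMIs then remained in YUMM1.7. Igfbp2 had 5 there, all in 1 cell, and 68 in YUMMER1.7. Clu had 10 and 94, and 1 YUMMER1.7 cell held 28 of the 94. Pcdh15, Dsc3, Cxadr and Grem1 were likewise lower over all members (ratios of -2.84, -2.57, -3.04 and -1.89), and the unmarked members held at most 6 UMIs of any of them per library. Ccl21a had a UMI in 16.6% and 39.2% of the other cells kept, against 28.3% and 46.2% of members.

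Some of the widest ratios belonged to single cells. One Pi16-negative YUMMER1.7 member of 27789 UMIs held 203 UMIs of Cxcl10, 238 of Ifit1 and 67 of Ifit3. Ifit1, an interferon-induced RNA sensor, had a log2 ratio of 1.89 with that cell and of -1.0 without the leading cell. Cxcl10, the interferon-induced chemokine for activated T cells, had 0 UMIs in 60 YUMM1.7 members and 279 in 21 YUMMER1.7 members, at least 60.1-fold higher against a floor of 3 counts over the YUMM1.7 members (the exact interval of the log2 ratio starts at 5.60), and at least 16.4-fold higher without the leading cell. Other cells kept stood at 58.8 and 170 CPM of Cxcl10, and reticular cells at 113 and 314 CPM. One Pi16-negative YUMM1.7 member held 150 of 154 UMIs of Ccl4 and 64 of 68 of Ccl3, chemokines of activated myeloid cells, and the ratios of -5.09 and -4.72 became 0.18 and -0.63 without the leading cell. The ratio of 4.09 for Ankrd1, a muscle and wound response gene, came from 75 UMIs in 1 marked YUMMER1.7 cell and was -0.21 without the leading cell.

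A Pi16-positive YUMMER1.7 member of 55243 UMIs, the deepest of all, held 429 UMIs of Postn, 252 of Col8a1, 141 of Cthrc1 and 1037 of Col1a1. Cthrc1, a secreted protein of activated matrix-making fibroblasts, had 97 UMIs in 11 YUMM1.7 members, 57 in 1 cell, and 413 in 21 YUMMER1.7 members. Its ratio was 1.46 (1.14 to 1.80), 0.86 without the leading cell and 0.50 without the members that held leukocyte RNA, and 17 of the 21 cells were Pi16-positive. Col8a1, a short-chain collagen of vessel walls, had a ratio of 1.08 that was 0.26 without the leading cell. Another Pi16-positive member of 44251 UMIs held 292 UMIs of Timp1, 95 of Tagln and 36 of the division gene Top2a. S100a4, a calcium-binding protein of motile cells, had a ratio of 1.64 and of 0.98 without the leading cell. Rbp4, the retinol carrier, and Ptn, the growth factor pleiotrophin, had ratios of 2.19 and 2.26 from 106 UMIs in 16 and 89 UMIs in 14 YUMMER1.7 cells, and the leading cell held 43.4% and 38.2% of these. Hgf, hepatocyte growth factor, stood at 71.9 and 20.3 CPM (-1.83), with 51.6% of its YUMM1.7 UMIs in 1 cell, and Hs3st3a1, a heparan sulphate sulphotransferase, had a ratio of -2.11, with 39.6% in 1 cell.

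Summed over all members, bulk matrix genes differed little between the arms. Col1a1 stood at 8609 and 8959 CPM, Col1a2 at 8541 and 8544, Dcn at 6859 and 6831 and Sparc at 12286 and 10827. The median over members, per 10000 UMIs, was 42.6 and 71.2 for Col1a1, 44.3 and 72.7 for Col1a2 and 59.6 and 69.6 for Dcn. Of 14 measured fibrillar and related collagens 2 were at least 2-fold higher, Col8a1 and Col11a1, none lower, with a median log2 ratio of 0.03. For this list and those below, the shares over all genes measured were 1.43% higher and 1.45% lower. Without the marked members the collagen median was 0.27, and Col1a1 then stood at 7003 and 9236 CPM (0.40). The log2 ratios of Col1a2, Dcn and Sparc were then 0.31, -0.31 and 0.05. None of the 21 enzymes and chaperones of collagen processing passed 2-fold, and their median was 0.14. Fkbp10, a collagen chaperone, stood at 0.96 over all members and at 1.81 (1.12 to 2.57) without the marked ones.

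Elastic fibre genes had small ratios that mostly pointed the same way. Over all genes measured, 3227 of 6495 were above 0, with a median of -0.00. None of the 19 elastic fibre genes passed 2-fold, 16 were above 0 and their median was 0.31. Eln, elastin, stood at 960 and 1194 CPM (0.31, and -0.08 without the leading cell), Fbln2, fibulin 2, at 704 and 1085 CPM (0.62) and Fbn1, fibrillin 1, at 1937 and 2091 CPM (0.11). The median was 0.22 without marked members and 0.11 in Pi16-positive members. In reticular cells of the same libraries it was 0.39, over 18 measured genes. Basement membrane genes had none of 13 past 2-fold and a median of 0.13.

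Proteoglycans had Prg4 and Has1 as the only 2 of 14 past 2-fold upward, none downward, with a median of 0.24. Biglycan, Bgn, stood at 2244 and 3071 CPM (0.45) and lumican, Lum, at 980 and 1100 CPM. Matricellular genes had 3 of 17 higher, Postn, Comp and Thbs4, and 1 lower, Vtn, with a median of 0.30. In reticular cells the median of 13 measured genes of this list was 0.45. Mgp stood at 3641 and 4737 CPM (0.38). Without the marked members it stood at 4291 and 3227 CPM (-0.41, interval -0.49 to -0.33). The marked members had 2632 and 8798 CPM of it. Comp, a cartilage matrix protein, had a ratio of 1.41, and of 0.63 without the leading cell.

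Among proteases and their inhibitors 4 of 29 were at least 2-fold higher and none lower, with a median of -0.02. Serpina3n, a serine protease inhibitor, had 305 UMIs in 41 members and 1075 in 70, a log2 ratio of 1.19 (1.0 to 1.38) and of 0.98 without the leading cell. Timp1, an inhibitor of matrix metalloproteinases, had a ratio of 1.04, and of 0.49 without the leading cell. In Pi16-negative members Serpina3n stood at 287 and 1812 CPM, with 144 UMIs in its leading YUMMER1.7 cell. The others were Adamts15 (1.06) and Adamts9 (1.46, and -0.00 without the leading cell).

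Of the 35 other adventitial genes, 1 was at least 2-fold higher (Has1) and 2 lower (Smpd3 and Limch1), with a median of 0.00. That median was -0.37 in the Pi16-positive members, -0.19 without the marked members and 0.37 under a stricter gate. Cd34, a sialomucin of progenitors, stood at 397 and 464 CPM, Ly6a, also called Sca-1, at 1722 and 1782, and Sema3c at 394 and 395. Gsn, the actin-severing protein gelsolin, was the most abundant of the list and stood at 8720 and 4910 CPM (-0.83, interval -0.88 to -0.78). Its difference in value lay in the Pi16-negative cells, at 23393 and 6697 CPM, against 5263 and 4881 CPM in the Pi16-positive cells. Inmt, a methyltransferase, was lower in YUMMER1.7 in the Pi16-negative cells (485 and 65.9 CPM) and higher in the Pi16-positive cells (12.8 and 53.0 CPM).

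Reticular genes had 2 of 21 higher and 5 lower, with a median of -0.31 that was 0.02 without the marked members. Il33, an alarmin of lymph node stroma, stood at 493 and 718 CPM (0.54), and at 1.45 (1.18 to 1.72) without the marked members. Cxcl12 stood at 0.35 and at 1.07 (0.84 to 1.31) without them. Cxcl13, whose sum with Ccl19 the rule used, stood at 104 and 393 CPM. A UMI of it was found in 38.3% and 60.3% of members. In the other cells kept, which were less deep, the shares were 29.7% and 59.0%. The leading YUMMER1.7 members held 149, 114 and 62 of its 524 UMIs there. In Pi16-positive members it stood at 96.2 and 590 CPM. The source of these transcripts was not tested.

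Chemokine and cytokine genes had 4 of 25 higher and 2 lower, with a median of 0.06, and interferon-gamma response genes had 2 of 15 higher (Cxcl9 and Cxcl10), none lower and a median of 0.25. Cxcl14, a chemokine of skin and stromal fibroblasts, stood at 581 and 1253 CPM (1.11, interval 0.96 to 1.26), and at 0.84 without the leading cell. One Pi16-positive YUMM1.7 cell held 231 of its UMIs and 1 Pi16-negative YUMMER1.7 cell 285. Ccl2 (376 and 380 CPM) and Il6 (155 and 164 CPM) were close in the arms. Type I interferon response genes had 1 of 22 higher (Ifit1), none lower and a median of 0.30, which was -0.12 in Pi16-positive members. MHC class I genes had none of 18 past 2-fold and a median of 0.20, with B2m at 1378 and 1763 CPM.

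**Figure D5:**
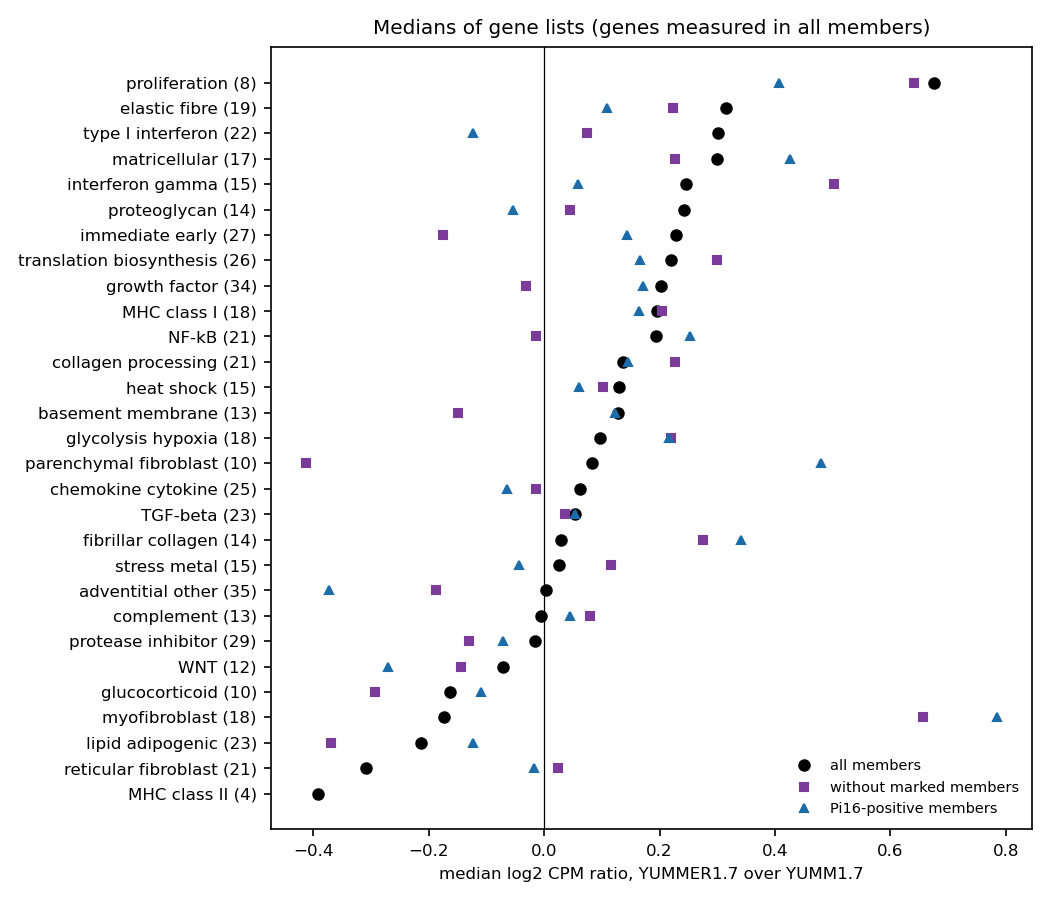
Median log2 CPM ratio of YUMMER1.7 over YUMM1.7 for each gene list, with the number of genes measured in all members in brackets, for all members, for members without marks and for Pi16-positive members; medians of the smaller sets are over the genes with at least 50 UMIs there. Elastic fibre genes lie at 0.31 and reticular genes at -0.31 in all members, and the medians of several lists change sign between the sets.

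The remaining lists had medians between -0.39 and 0.67. Immediate-early genes had 2 of 27 higher, 22 above 0 and a median of 0.23, which was -0.18 without the marked members, with Fos at 659 and 808 CPM. Genes of translation had none of 26 past 2-fold, 24 above 0 and a median of 0.22. Of all genes measured, 3227 of 6495 were above 0. In reticular cells the median was 0.44 for immediate-early genes and 0.14 for genes of translation. TGF-beta pathway genes had none of 23 higher and 2 lower, Grem1 and Inhba, with a median of 0.05, and WNT genes none of 12 past 2-fold. Myofibroblast genes had 2 of 18 higher, Postn and Cthrc1, and 4 lower, with a median of -0.17, and 0.66 without the marked members. Tagln, a smooth muscle actin-binding protein, then stood at 22.9 and 327 CPM. Of its 318 UMIs in the unmarked YUMMER1.7 members, the Pi16-positive cells of 55243 and 44251 UMIs held 96 and 95. Complement genes had none of 13 higher and 2 lower, Clu and C7, and C3 stood at 1820 and 1818 CPM. Division genes were mostly too scarce to measure, and Top2a came mainly from 1 YUMMER1.7 cell.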

How the data were processed

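Droplet single-cell RNA-seq of 6 lymph node libraries was used, 1 per arm and fraction, from pooled mice per the series' design text. The deposited matrices hold raw UMI counts per gene and cell; per the submitters' processing notes they were made with Cell Ranger 8.0.1 on mm10, while the file headers of the CD45-depleted libraries name 7.0.0. The label of that fraction says de-enriched for CD45 and its protocol speaks of positive enrichment of stromal cells with CD45 beads.

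The cells, lists and comparisons were chosen with earlier results of these data known. Member UMIs were summed per library and divided by their total (CPM). Ratios of genes with at least 50 UMIs over both libraries have exact conditional binomial 95% intervals, shares have Clopper-Pearson intervals, and both cover counting error only. A log2 ratio of at least 1 in size was counted; there is no p-value. Named genes were the 12 per direction whose nearer interval bound lay furthest from 0 (in both libraries for adventitial against reticular cells), with at least 50 CPM in 1 library, a level not under 0.5 of that in the other cells, and no ribosomal, mitochondrial, immunoglobulin, haemoglobin or unnamed genes; of each list the widest ratios and highest levels were named, and further genes were chosen after their values were seen. Scrublet (scanpy 1.11.5) made 0 calls and was taken as not having worked. Python 3.11.15, numpy 2.4.6, scipy 1.17.1 and pandas 2.3.3 were used, and the ratio was tested on simulated data. The simulated sums had counting error only and no spread between cells, so they could not show how single cells move a ratio. The 29 pathway and 17 cell type lists had 1 gene without a match, and 7 genes matched under another symbol. Among the genes lower in YUMMER1.7, 1 is not reported here.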

Additional observations from a re-analysis of the deposited data

How the results depend on the processing

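With 1 library per arm, no replicate could be left out. No paired analysis was possible because each arm has 1 library. Depth limits the counts of genes. Higher and lower genes numbered 93 and 94 of 6495 measured. They numbered 311 and 297 of 9489 at a minimum of 20 UMIs, and 21 and 14 of 1945 at 200 UMIs. With 1 UMI in each library they were 877 and 1386 of 14479, and after thinning to 1000 UMIs 6 and 4 of 373. A strict gate gave 58 and 44 of 2108, and Pi16-positive members 118 and 51 of 3630. Of the main 93 and 94, 37 and 26 recurred without marked members, where 4954 genes were measured. In Pi16-positive members 22 and 11 recurred. Members were 0.299% and 0.384% of cells under the strict gate (15.8% and 7.46% of fibroblasts) and 0.263% and 0.691% with Pi16 (13.9% and 13.4%). They were 0.502% and 1.06% without marked cells, and 0.502% and 1.11% without leukocyte RNA. These 2 settings also left such cells out of the reticular cells. Of the fibroblasts that remained, members were 87.5% and 71.4% without marked cells, and 44.7% and 38.7% without leukocyte RNA. Against reticular cells, 664 genes were lower at 20 UMIs, 180 higher and 179 lower at 200 UMIs, 39 and 41 after thinning, and 654 lower in Pi16-positive members. The number of genes measured differed between these settings as well. The reticular median of -0.31 was 0.17 after thinning, 0.26 under the strict gate and 0.025 without marked cells; that of type I interferon was -0.22 under the strict gate and -0.12 with Pi16. Without the leading cell, Ankrd1 was -0.21, Ifit1 -1.0 and Ccl4 0.18. Under the strict gate S100a4 was -0.49, Ccl3 0.13, Ccl21a 1.55 and Clu 1.25. Without marked cells Ccl21a was 0.18, Igfbp2 2.88 and Clu 2.34, with only 10, 5 and 10 UMIs of these left in YUMM1.7. In Pi16-positive members Ifit1 was -0.75, Ccl21a 0.32 and Clu 0.49. Ptn was -1.38 after thinning and Hgf 0.033 without leukocyte RNA. The cause was not tested.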
